A study of Xenopus laevis with 37 samples.

Results

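The genes described here encode the proteins of the cytosolic ribosome in the frog Xenopus laevis. They were chosen by name: every row of the expression table whose name starts with rpl or rps followed by a digit, leaving out the rps6k kinases, and whose level reached 1 TPM in at least 2 libraries. TPM is a level of transcripts corrected for transcript length and for the total of each library, so levels of different genes can be compared. The name rule matched 107 rows, and 106 of them passed the filter on low values, out of 28863 features that passed it in all. The row that did not pass was rpl3l.S. The 106 genes comprise 60 genes for large subunit proteins of 32 families, 42 genes for small subunit proteins of 23 families and 4 genes for paralogs or associated proteins (rpl3l.L, rpl7l1.L, rpl22l1.L and rps19bp1.L). Xenopus laevis is allotetraploid, and the letters L and S mark the copy on the long and the short chromosome of each homeologous pair. Both copies were present for 46 families, which hold 92 of the 106 genes. Families are counted by name without the letter, so rpl37a.1 counts as a family apart from rpl37a.L.

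The ribosome is built from a large and a small subunit, each an RNA scaffold bound by a fixed set of proteins. Messenger RNAs for these proteins are among the most abundant of a growing cell and carry a run of pyrimidines at their start that places their translation under growth control. During early frog development the embryo carries a large maternal store of ribosomes, and new ribosomal protein messages build up as the organs form.

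The study cut explants from embryos at stage NF20 and sequenced polyadenylated RNA in 37 libraries of 15 groups, with 2 or 3 independent biological replicates a group. For the inhibitor experiment, whole embryos were kept from stage NF12 onward in 60 µM BIO, which activates Wnt signalling by inhibiting the kinase GSK3, in 40 µM DMH1, which inhibits BMP receptors, or in the solvent DMSO as vehicle, and foregut and hindgut were then dissected (6 groups of 3 libraries). In the heat experiment, a pulse of 30 min at 37 °C followed by 13 °C was meant to switch on the transgene hsp:Dkk1GFP. This transgene encodes a secreted Wnt inhibitor behind a heat shock promoter. Heated foregut or hindgut was compared with unheated explants (4 groups of 2 libraries). In the germ layer experiment, foregut and hindgut were separated into mesoderm and endoderm (4 groups of 2 libraries), and 1 further group holds 3 libraries of dorsal tissue with no treatment label. All embryos are labelled wild type, the labels do not say whether unheated embryos carried the transgene, and heated embryos without the transgene were not analysed here, so heat and Dkk1 cannot be told apart. Each group is bulk tissue, in which fewer cells of a type and less RNA per cell cannot be told apart.

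The regional labels matched their markers: hindgut markers (8 cdx and hoxa7 rows) summed to 315.0 to 1771 TPM in the hindgut libraries, against 5.71 to 114.5 TPM in the foregut libraries other than those with BIO, which had 219.8 to 397.8 TPM. For hindgut mesoderm 1 label, the tissue, says endoderm, so title and source name set the group. The endoderm marker sum was 102.3 to 115.1 TPM there and 10852 to 11268 TPM in hindgut endoderm. The dkk1 rows do not check the heat label, since dkk1.L averaged 15.7 ± 1.48 TPM in heated foregut and 18.4 ± 3.52 TPM in unheated foregut (SD, n = 2 each). Mesoderm explants held high levels of epidermal markers: 10 epidermal rows summed to 19843 to 27795 TPM in the 4 mesoderm libraries and to 52.5 to 159.6 TPM in the 4 endoderm libraries, and the part of these cells in the comparisons of the layers was not tested. In the germ layer experiment 1 library stood apart, foregut endoderm replicate 1, with 15182 features at 1 TPM or more, the fewest of all libraries, against 18182 to 22769 in the others. The sequencing depth is unknown because only TPM values were used, and the labels give no batch or date.

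Ribosomal protein messages were abundant in every tissue. The median member had a mean level of 781.5 TPM over the 15 groups, against 4.85 TPM for the median of all features that passed. Of the 106 genes, 102 reached 1 TPM in all 37 libraries, 101 had a mean above 100 TPM and 33 a mean above 1000 TPM. The highest was rps20.L, which encodes a protein of the small subunit head, with a mean of 3713 TPM and the first rank among the members in 37 of 37 libraries. It was followed by rpl36a.L (2576 TPM), rpl3.L (2114 TPM), rps29.L (1935 TPM), rpl39.S (1793 TPM) and rpl23.L (1670.4 TPM). rpl3 lies close to the peptidyl transferase centre, and rpl39 is a short protein of the exit tunnel through which the new chain leaves. Among genes with known regulatory roles, rpl5.L, whose protein binds the regulator Mdm2 in mammals when ribosome assembly is disturbed, averaged 1418 TPM and rpl5.S 749.6 TPM. rps6.L, the substrate of the S6 kinases, averaged 1488 TPM and rps6.S 552.0 TPM. rpl38, which in the mouse is needed for the translation of Hox messages, averaged 811.0 TPM from the L copy and 630.3 TPM from the S copy. rpl10, rpl11, rpl22, rps19 and rps27l are not among the 106 genes and were not analysed here.

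**Figure D1:**
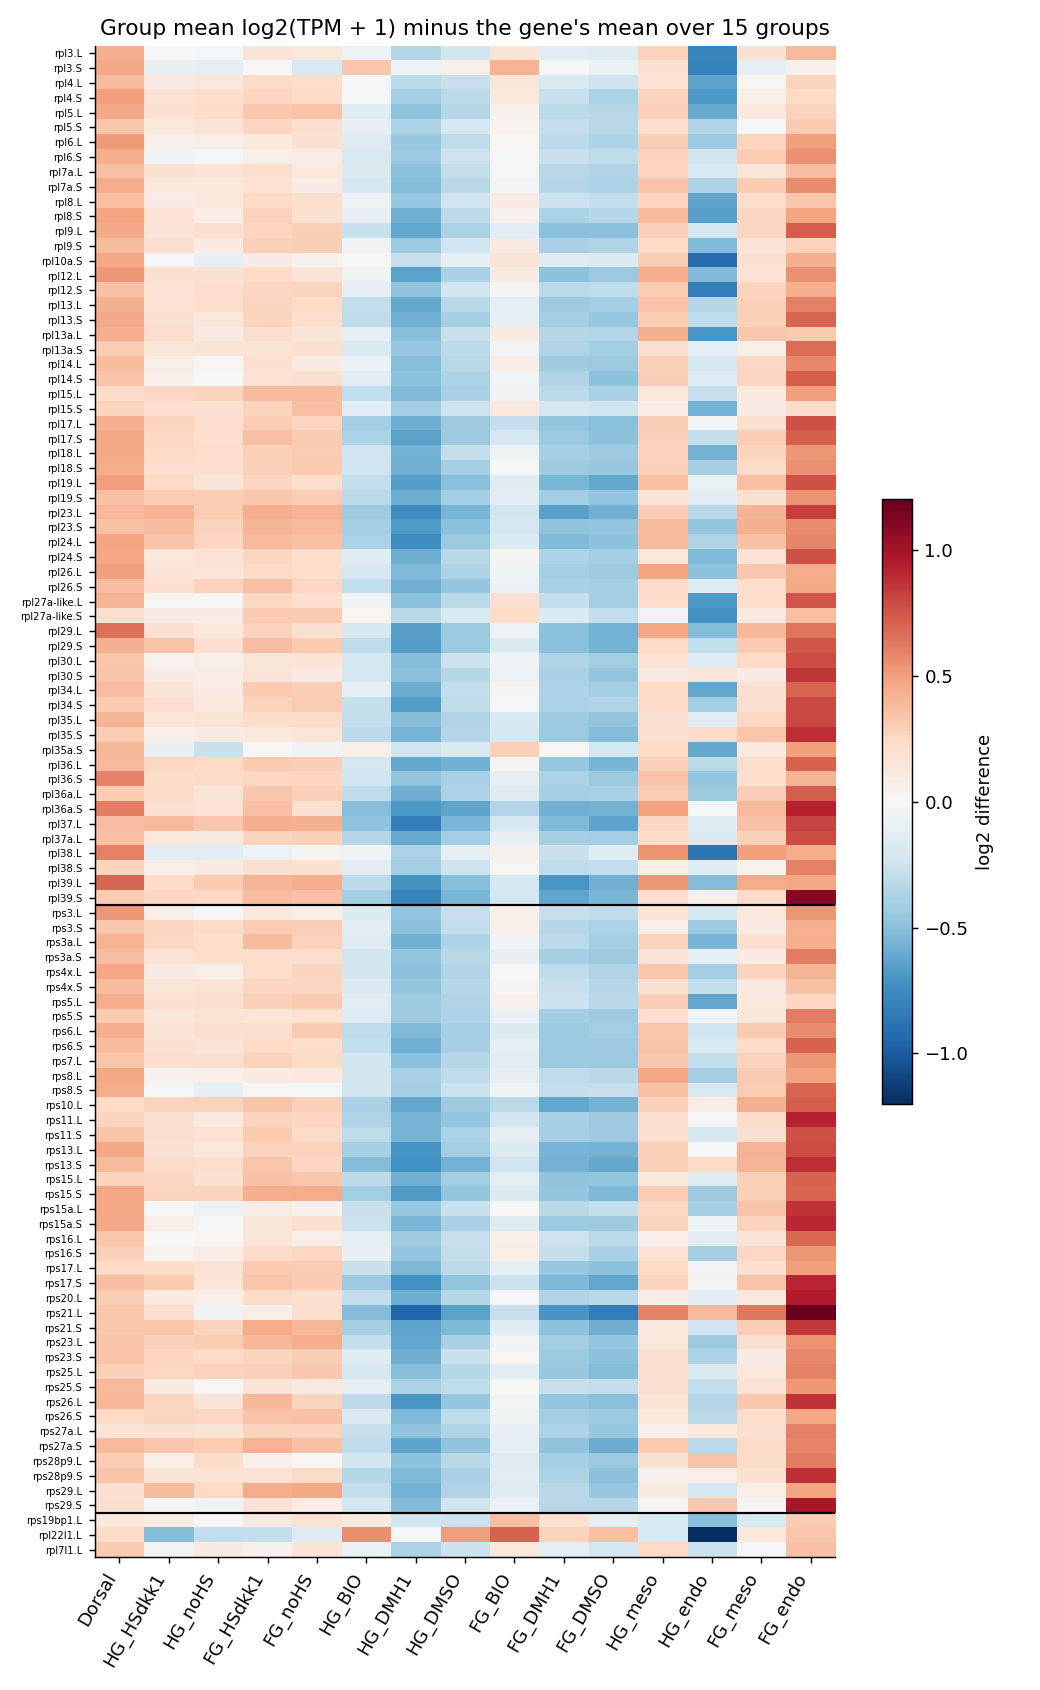
Level of 102 ribosomal protein genes (rows) in the 15 groups (columns), each cell being the group mean of log2(TPM + 1) minus the gene's mean over the 15 groups (FG foregut, HG hindgut, meso mesoderm, endo endoderm, HSdkk1 heated, noHS unheated, DMSO vehicle). Black lines separate large subunit genes, small subunit genes and paralogs, and most rows share their highest values in foregut endoderm and dorsal tissue and their lowest in DMH1 hindgut and hindgut endoderm.

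The same groups were high and low for most genes, as the heat map of group levels shows. Over the 102 genes detected in all libraries, the group mean was highest in foregut endoderm for 80, in dorsal tissue for 19 and elsewhere for 3. It was lowest in DMH1 hindgut for 80, in hindgut endoderm for 21 and in vehicle foregut for 1. The ratio of the highest to the lowest group mean ran from 1.64-fold for rpl5.S to 6.44-fold, with a median of 2.33-fold. Without foregut endoderm replicate 1, the library that stood apart, the highest mean was in dorsal tissue for 51, in foregut endoderm for 34 and elsewhere for 17, the lowest mean was again in DMH1 hindgut for 80 and in hindgut endoderm for 21, and the ratio ran from 1.61-fold to 5.09-fold with a median of 2.02-fold. In limma's moderated F-test over the 15 groups, 105 of 106 members differed at a Benjamini-Hochberg adjusted p under 0.05, where 73.5% of all features did. The member that did not was rpl3l.L. The 105 include 3 low rows without a chromosome letter (rps24.1, rpl37a.1 and rpl37) that passed the filter through the groups in which they are high, and without them the count was 102 of 103. The smallest p-values belonged to rpl39.L (range of group means 1.42 on the log2 scale, limma adjusted p = 7.09e-10), rpl17.S (range 1.36), rps15.S (1.38), rps13.L (1.49), rpl19.S (1.13) and rpl37.L (1.62).

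Tested one experiment at a time, the counts were smaller. Within the 6 inhibitor groups, 83 of 106 members differed by the same F-test (30.1% of all features). Within the 4 germ layer groups 14 did (20.6% of all features; 50 members at an unadjusted p under 0.05). Within the 4 heat groups limma called none (0.249% of all features), and 0 members had an unadjusted p under 0.05.

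Summed over the 106 genes, ribosomal protein messages made up between 5.59% and 16.8% of all TPM in a library, a 3.01-fold range. The share was 12.3%, 10.3% and 11.8% in the 3 dorsal libraries. It lay between 8.40% and 11.7% in the 8 libraries of the heat experiment and between 5.59% and 9.01% in the 18 libraries of the inhibitor experiment. In the germ layers it was 10.8% and 9.72% in foregut mesoderm, against 16.8% and 11.1% in foregut endoderm, and 10.3% and 10.5% in hindgut mesoderm, against 6.51% and 8.09% in hindgut endoderm. Both hindgut endoderm libraries were below every other library of that experiment, and foregut endoderm replicate 1 was the highest of all 37. A sum over the genes has no test here.

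**Figure D2:**
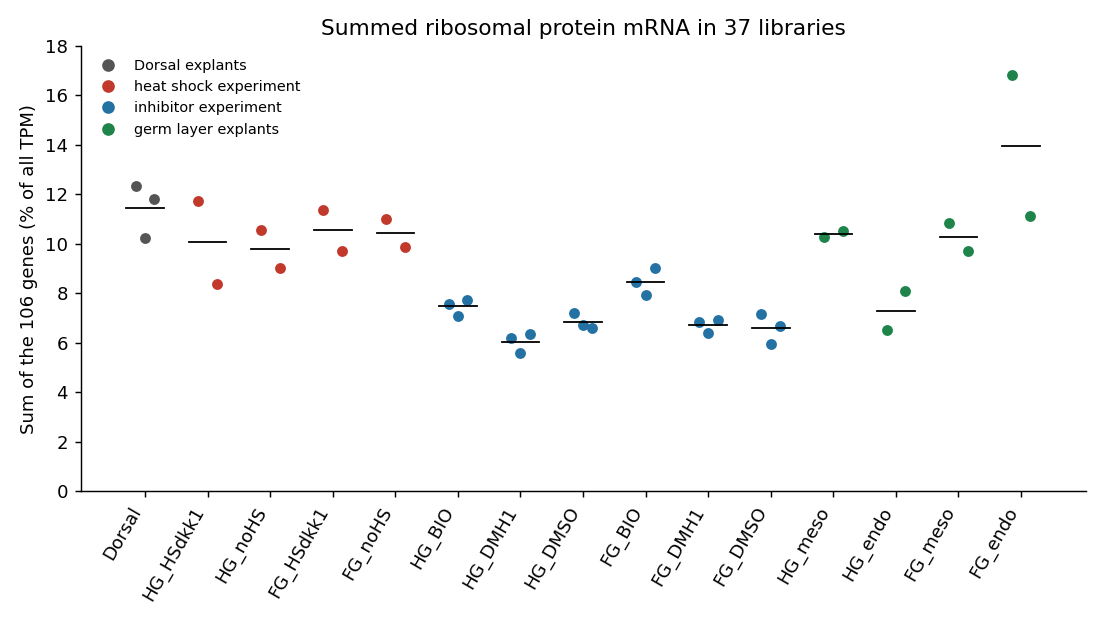
Summed level of the 106 ribosomal protein genes as a percent of all TPM (vertical axis) in each of the 37 libraries, grouped by tissue and treatment (FG foregut, HG hindgut, HSdkk1 heated, noHS unheated); each dot is 1 library and each bar a group mean. The 18 inhibitor libraries lie between 5.59% and 9.01%, and the dorsal libraries between 10.3% and 12.3%.

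The first comparison asks how these genes differ between BIO and vehicle in the foregut. On the TPM scale 17 of 106 ribosomal protein genes rose in BIO foregut and 0 fell (limma, adjusted p under 0.05 over all features). Of all features, 1.92% (555) rose and 4.5% (1300) fell. Median-of-ratios scaling rescales each library to the median feature, and with it 652 features rose and 920 fell. With that scaling the share of members that rose was below that of all features, as given below. The 17 comprise 11 of 60 large subunit genes, 4 of 42 small subunit genes and rpl7l1.L and rps19bp1.L. The median log2 difference of the 106 genes was 0.36, against −0.08 for all features, with all fold changes on the log2(TPM + 1) scale. For 86 of the members the 3 BIO libraries lay above the 3 vehicle libraries without overlap, as they did for 8.86% of all features. The summed share was 8.46% ± 0.540 in BIO foregut and 6.59% ± 0.609 in vehicle foregut (SD, n = 3 each), a ratio of 1.28.

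The smallest p-values were those of both copies of rpl4, which encodes a protein of the exit tunnel wall. rpl4.S had 674.9, 604.9 and 780.0 TPM in BIO foregut, against 534.1, 413.5 and 491.5 TPM in vehicle foregut. rpl4.L had 1613, 1475 and 1634 TPM in BIO foregut, against 1302, 1086 and 1228 TPM in vehicle foregut. All BIO libraries were above all vehicle libraries for both copies, and the log2 difference was 0.52 (SE 0.12, limma adjusted p = 0.00922) for rpl4.S and 0.39 (SE 0.10, limma adjusted p = 0.0176) for rpl4.L. rpl13a.L, a large subunit gene, had 838.3, 808.4 and 914.0 TPM in BIO foregut, against 647.2, 569.2 and 655.5 TPM in vehicle foregut (log2 difference 0.45, limma adjusted p = 0.0180). rpl7l1.L, a paralog of rpl7, had 572.2, 532.0 and 556.2 TPM in BIO foregut, against 488.3, 428.2 and 404.3 TPM in vehicle foregut (log2 difference 0.33, limma adjusted p = 0.0209). Again no library of one group reached the range of the other. rpl18.S and rpl6.L, both large subunit genes, completed the 6 with the smallest p, with log2 differences of 0.45 and 0.39 and limma adjusted p of 0.0256 and 0.0270. The other 11 genes that rose were rpl29.L, rps19bp1.L, rpl19.L, rps3.S, rpl35a.S, rps4x.S, rpl27a-like.S, rpl12.L, rps27a.S, rps16.S and rpl3.S. Every member with a chromosome letter had a positive difference, so the copies necessarily had the same sign in 46 of 46 pairs. Both copies were called in 1 family and a single copy in 12.

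How many genes were called in BIO foregut turned on single libraries. The count was 0 without vehicle foregut replicate 2 or BIO foregut replicate 3, 3 without vehicle foregut replicate 3 or BIO foregut replicate 1, 9 without BIO foregut replicate 2 and 21 without vehicle foregut replicate 1. It was 40 when replicate numbers were blocked, 1 with median-of-ratios scaling and 1 when the 2 groups were fitted alone. The 1 member with median-of-ratios scaling was a smaller share than that of all features that rose with it. The epidermal marker sum was 6632 to 7951 TPM in BIO foregut and 8325 to 12075 TPM in vehicle foregut, and its part in the result was not tested.

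Genes that make ribosomes moved in the same comparison. Of 145 ribosome biogenesis genes (processing and assembly factors of the nucleolus), 56 rose and 0 fell in BIO foregut, with a median log2 difference of 0.43. The smallest p-values were those of rcl1.L, which acts in the cleavage of the precursor of the small subunit RNA (log2 difference 0.66, limma adjusted p = 3.21e-05), nhp2.L (0.65) and nmd3.L, an export adaptor of the large subunit (0.66). The count was 32, 23 and 29 without vehicle foregut replicate 2, vehicle foregut replicate 3 and BIO foregut replicate 3, and 85 with the replicate block. Of 7 cytosolic ribosomal protein genes that the name rule does not take (fau, rplp0, rplp1 and rpsa rows), 3 rose, namely fau.S (log2 difference 0.50), rplp1.L (0.47) and rplp0.L (0.52). Of 101 genes for proteins of the mitochondrial ribosome, 6 rose and 0 fell, and this count was 1 or 2 when any single library other than vehicle foregut replicate 1 was left out.

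In the hindgut BIO gave smaller differences. Limma called 0 of 106 members in either direction, with 4 at an unadjusted p under 0.05 (0.0173% of all features rose and 0.0104% fell). The median log2 difference was 0.12, against 0.01 for all features, and 102 members had a difference above 0. The 3 BIO libraries lay above the 3 vehicle libraries for 31 members, and for 6.96% of all features. rpl4.S had 605.4, 565.1 and 675.2 TPM in BIO hindgut, against 515.6, 484.1 and 499.5 TPM in vehicle hindgut (log2 difference 0.30, limma adjusted p = 0.632). The test of the difference itself, the effect of BIO in hindgut minus that in foregut, called 0 of 106 members (limma; 1 at an unadjusted p under 0.05; 0.828% of all features). Its median was −0.24, against 0.10 for all features, and 104 of 106 members had a value below 0. The members vary together within groups (median correlation with the sum of the others 0.88), so such counts of signs are not tests. The biogenesis list had a median of 0.38 in BIO hindgut, with 2 of 145 called.

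DMH1, which lowers BMP signalling, called no member in either region. In the foregut limma called 0 of 106, with 1 at an unadjusted p under 0.05 (0.229% of all features rose and 0.509% fell), and the median log2 difference was 0.03. In the hindgut limma called 0 as well, with 4 at an unadjusted p under 0.05 (0.939% of all features rose and 0.225% fell). The median log2 difference in the hindgut was −0.18, against 0.07 for all features, and 102 of 106 members lay below 0. The members vary together, so this count of signs is not a test. For 47 members the 3 DMH1 hindgut libraries lay below the 3 vehicle libraries, as they did for 3.71% of all features. The summed share was 6.17%, 5.59% and 6.34% in DMH1 hindgut, against 7.21%, 6.72% and 6.59% in vehicle hindgut, and all 3 DMH1 libraries were below the vehicle libraries. The smallest p belonged to rpl22l1.L, with 83.3, 77.1 and 91.6 TPM in DMH1 hindgut, against 101.2, 127.2 and 134.2 TPM in vehicle hindgut (log2 difference −0.51, limma adjusted p = 0.238). The effect of DMH1 in hindgut minus that in foregut had a median of −0.21, against 0.09 for all features. For 103 members it lay below 0, and limma called 0 (0 at an unadjusted p under 0.05, with 0.149% of all features called).

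The heat pulse meant to induce Dkk1 gave no call, and the induction itself was not tested. In the foregut limma called 0 of 106 members (0 at an unadjusted p under 0.05; 0.0173% of all features rose and 0.00693% fell). In the hindgut it called 0 as well (0 at an unadjusted p under 0.05; 0.00693% of all features rose and 0% fell). The median log2 difference was 0.02 in each region. The summed share was 11.4% and 9.71% in heated foregut, against 11.0% and 9.87% in unheated foregut, and 11.7% and 8.40% in heated hindgut, against 10.6% and 9.00% in unheated hindgut. Replicates of 1 group differed by more than the groups did. The heat effect in hindgut minus that in foregut had a median of 0.01 with 0 members called (limma; 0 at an unadjusted p under 0.05; 0.0139% of all features).

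**Figure D3:**
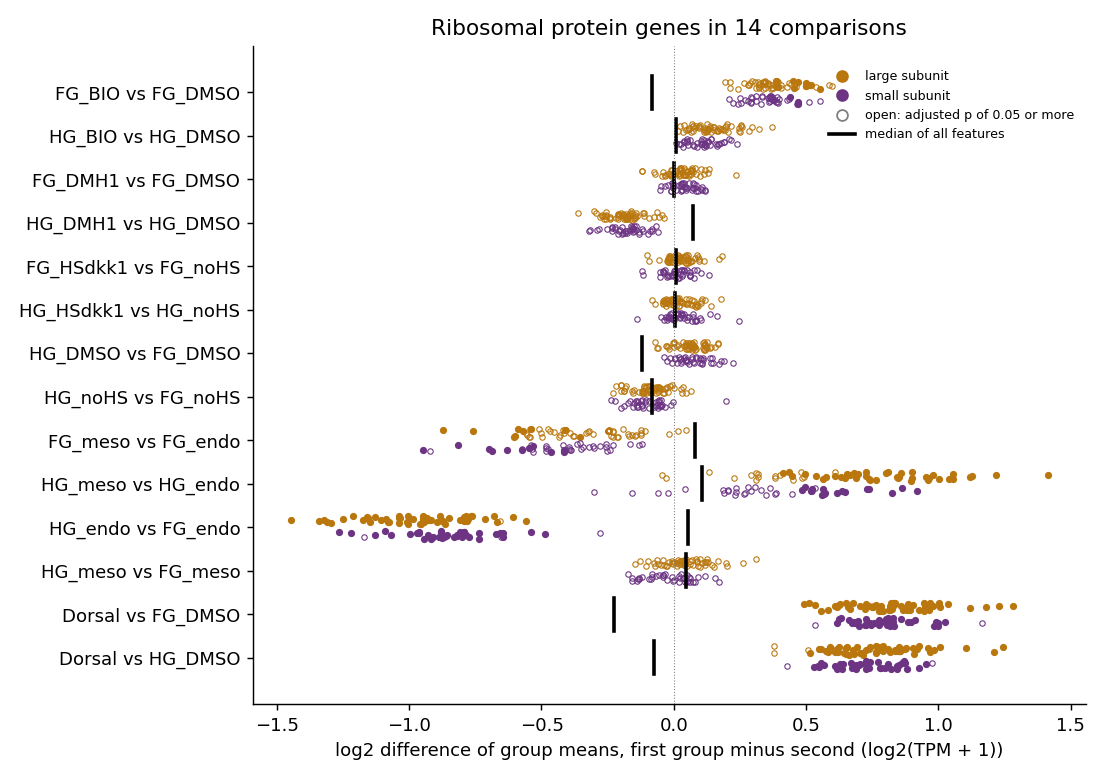
Log2 differences of the ribosomal protein genes detected in all libraries, on the log2(TPM + 1) scale, in 14 comparisons (1 row of dots each for the large and the small subunit; FG foregut, HG hindgut, HSdkk1 heated, noHS unheated). Filled dots are genes with a limma adjusted p under 0.05, the black bar is the median of all features, and the widest displacements are those of hindgut endoderm against foregut endoderm, median −0.92, and of dorsal tissue against vehicle foregut, median 0.81.

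The germ layers of the hindgut differed widely, as the plot of the comparisons shows. In hindgut mesoderm 59 of 106 members were called higher than in hindgut endoderm and 0 lower. Of all features, 21.6% (6231) were higher and 11.6% (3362) lower. With median-of-ratios scaling 5714 features were higher and 4697 lower. The share of members called higher with that scaling was close to that of all features, as given below. The median log2 difference was 0.55, against 0.11 for all features. It was larger for the large subunit (median 0.68, 41 of 60 called) than for the small subunit (median 0.38, 16 of 42 called). The mesoderm libraries lay above the endoderm libraries without overlap for 89 members, and for 34.5% of all features.

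The genes with the smallest p were large subunit genes and the paralog rpl22l1.L. rpl13a.L had 1088 and 1044 TPM in hindgut mesoderm, against 542.7 and 441.6 TPM in hindgut endoderm (log2 difference 1.12, SE 0.14, limma adjusted p = 4.9e-07). rpl3.L had 2554 and 2440 TPM in hindgut mesoderm, against 1124 and 1281 TPM in hindgut endoderm (log2 difference 1.06, SE 0.14, limma adjusted p = 5.22e-07). rpl38.L had 1052 and 1217 TPM in hindgut mesoderm, against 553.5 and 325.2 TPM in hindgut endoderm (log2 difference 1.41, SE 0.20, limma adjusted p = 2.81e-06). For each of these 3 genes both endoderm libraries were far below both mesoderm libraries. rpl12.S, a gene for a protein at the base of the stalk, and rpl10a.S, linked in the mouse to mesoderm formation, had log2 differences of 1.13 and 1.22. rpl22l1.L had 64.8 and 85.2 TPM in hindgut mesoderm, against 24.3 and 30.8 TPM in hindgut endoderm (log2 difference 1.41, SE 0.21, limma adjusted p = 5.32e-06).

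The other copies differed among themselves. rpl13a.S had 940.9 and 913.1 TPM in hindgut mesoderm, against 644.8 and 863.7 TPM in hindgut endoderm (log2 difference 0.31, limma adjusted p = 0.132). rpl38.S had 647.6 and 630.4 TPM in hindgut mesoderm, against 475.5 and 627.6 TPM in hindgut endoderm (log2 difference 0.23, limma adjusted p = 0.574), so that the groups were apart by less than the spread between the endoderm replicates. rpl3.S had 355.6 and 437.4 TPM in hindgut mesoderm, against 144.8 and 266.2 TPM in hindgut endoderm (log2 difference 1.00, SE 0.19, limma adjusted p = 0.000116), close to the difference of rpl3.L. Over the 46 pairs, both copies were called in 18 and a single copy in 18. The count of 59 was 34 without hindgut endoderm replicate 1, 22 with median-of-ratios scaling and 7 when the 2 groups were fitted alone. Those 22 members were close to the share of all features called higher with the same scaling.

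The biogenesis list had a larger median than the ribosomal proteins. In hindgut mesoderm 125 of 145 biogenesis genes were called higher than in hindgut endoderm and 1 lower, with a median of 1.30. rcl1.L averaged 152.6 TPM in hindgut mesoderm and 33.2 TPM in hindgut endoderm, and both copies of nop58, a core protein of the small nucleolar particles that guide RNA methylation, differed by 2.07 (L) and 1.90 (S) on the log2 scale. Of 101 mitochondrial ribosomal protein genes, 46 were called higher and 2 lower, and 30 higher without hindgut mesoderm replicate 1. The 50 most abundant features took 188681 and 212031 TPM in hindgut mesoderm, against 254501 and 250993 TPM in hindgut endoderm, and the part of this in the result was not tested.

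In the foregut the layers differed in the other direction. In foregut mesoderm 22 of 106 members were called lower than in foregut endoderm and 1 higher, where 8.5% of all features were lower and 18% higher. The median log2 difference was −0.38, against 0.08 for all features, and the 22 included 9 large and 11 small subunit genes. The groups did not overlap for 59 members that were lower in mesoderm, and for 17.1% of all features. rpl30.S had 1302 and 1133 TPM in foregut mesoderm, against 2843 and 1485 TPM in foregut endoderm (log2 difference −0.76, SE 0.18, limma adjusted p = 0.00181). rps20.L had 4238 and 3595 TPM in foregut mesoderm, against 9504 and 4975 TPM in foregut endoderm (log2 difference −0.82, SE 0.20, limma adjusted p = 0.00219). In both cases foregut endoderm replicate 1, the library that stood apart, was farther above replicate 2 than replicate 2 was above the mesoderm. The next were rpl13a.S (log2 difference −0.60), rpl30.L (−0.54), rps28p9.S (−0.69) and rpl17.L (−0.57). The 1 member called higher was rps24.1, a low row with 4.15 and 3.66 TPM in foregut mesoderm that was listed at 0 in both foregut endoderm libraries. Without foregut endoderm replicate 1 the count of lower members was 1 and the median −0.11, without its replicate 2 the count was 66, and without foregut mesoderm replicate 1 or 2 it was 13 or 2. Fitted on these 2 groups alone, 0 members were called. The SE values above rest on the spread shared by the 15 groups, which does not measure the distance between the foregut endoderm replicates.

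Between regions, nearly all members were called in the endoderm and none in the mesoderm. In hindgut endoderm 98 of 106 members were called lower than in foregut endoderm and 0 higher, where 7.86% of all features were lower and 10.7% higher. The median log2 difference was −0.92, against 0.05 for all features, with 57 of 60 large and 38 of 42 small subunit genes called. Both copies were called in 42 of 46 pairs, and the 2 hindgut libraries lay below the 2 foregut libraries for 95 members (14.8% of all features). rpl22l1.L had 24.3 and 30.8 TPM in hindgut endoderm, against 129.7 and 87.0 TPM in foregut endoderm, the smallest p of this comparison (log2 difference −1.92, SE 0.21, limma adjusted p = 2.54e-07). rpl3.L had 1124 and 1281 TPM in hindgut endoderm, against 2928 and 2506 TPM in foregut endoderm (log2 difference −1.17, limma adjusted p = 5.28e-07). rpl12.S had 386.4 and 476.7 TPM in hindgut endoderm, against 1128 and 924.6 TPM in foregut endoderm (log2 difference −1.25, limma adjusted p = 3.14e-06). For each of these genes both hindgut libraries were below both foregut libraries.

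rpl10a.S (log2 difference −1.34), rps15.S, a gene for a protein near the decoding site (−1.13), and rpl4.L (−0.89) were the others with the smallest p. The 8 genes that did not pass were rpl35.S, rps29.S, rps21.L, rps28p9.L, rpl37, rps24.1, rpl37a.1 and rpl3l.L. Without foregut endoderm replicate 1 the count was 66 and the median −0.62, and the ratio of the summed levels was 0.657 in place of 0.523. Fitted on these 2 groups alone, limma called 0 members. In the same comparison 119 of 145 biogenesis genes were lower in hindgut endoderm and 0 higher, with rcl1.L at 33.2 TPM in hindgut endoderm and 145.8 TPM in foregut endoderm, and 46 of 101 mitochondrial ribosomal protein genes were lower. In hindgut mesoderm against foregut mesoderm, limma called 0 members (1 at an unadjusted p under 0.05; 1.44% of all features were higher and 0.915% lower), with a median of 0.02 that was −0.14 with median-of-ratios scaling.

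The difference between the layers thus had opposite signs in the 2 regions, and the test of that difference called 73 of 106 members (8.32% of all features), all with the mesoderm minus endoderm effect higher in the hindgut. The median of this interaction was 0.94, against −0.04 for all features. The largest evidence was for rpl3.L (1.27, SE 0.19, limma adjusted p = 7.06e-05), rpl4.L (1.04), rpl10a.S (1.45), rpl7l1.L (0.86), rpl12.S (1.29) and rpl13a.L (1.11). The count was 30 without hindgut endoderm replicate 1, 36 without foregut endoderm replicate 1, 39 without foregut mesoderm replicate 2, and 47 and 48 without hindgut mesoderm replicate 2 and 1. It was 23 with median-of-ratios scaling, and 0 when the 4 groups were fitted alone. These alternative counts are given without the share of all features.

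The balance of large to small subunit levels was lower in both endoderm groups than in every other library, and lowest in hindgut endoderm. The summed level of the large subunit genes divided by that of the small subunit genes was 1.12 and 1.13 in hindgut endoderm, the lowest of all libraries. It was 1.36 and 1.38 in hindgut mesoderm, 1.31 and 1.31 in foregut mesoderm and 1.19 and 1.26 in foregut endoderm. In the inhibitor experiment the ratio lay between 1.31 and 1.37, in the heat experiment between 1.27 and 1.30, and in dorsal tissue it was 1.36, 1.36 and 1.37. Replicates were close: in BIO foregut it was 1.35, 1.36 and 1.36, against 1.34 in all 3 vehicle libraries, and in DMH1 hindgut 1.33, 1.31 and 1.31, against 1.33 in all 3 vehicle libraries. The ratio is a quotient of sums and has no test here.

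**Figure D4:**
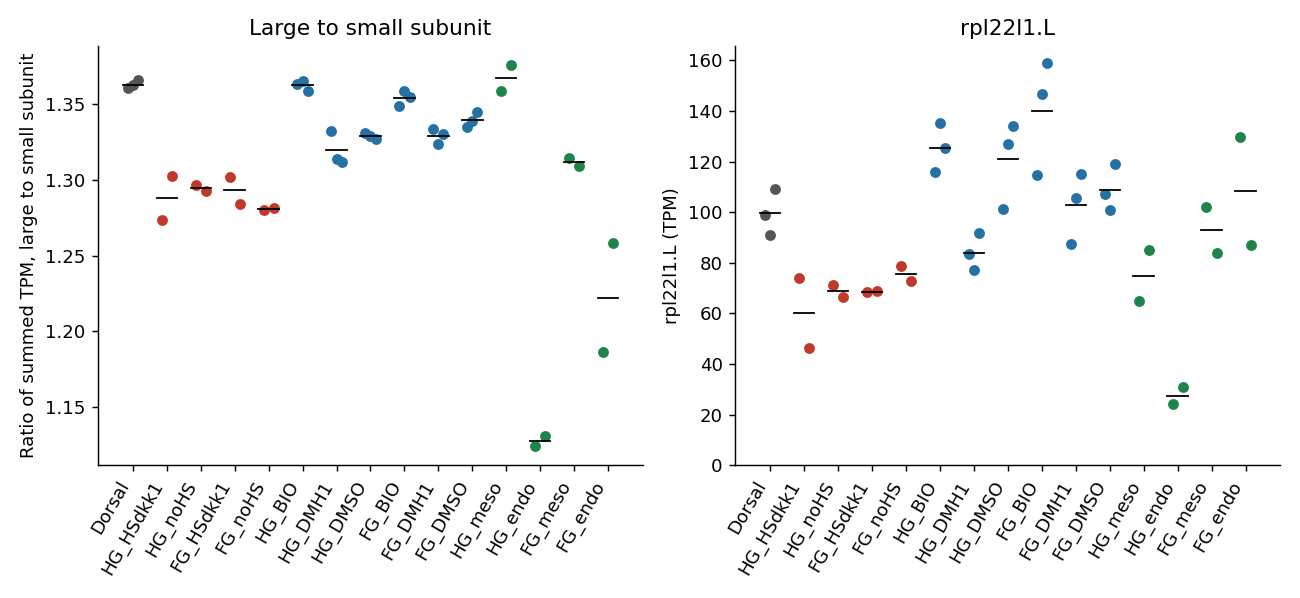
One panel plots the summed TPM of large subunit genes divided by that of small subunit genes and the other the TPM of rpl22l1.L, in each library (dots) with group means (bars). Hindgut endoderm has the lowest values in both, with ratios of 1.12 and 1.13 and rpl22l1.L at 24.3 and 30.8 TPM.

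Hindgut and foregut whole explants compared without a treatment, either with vehicle or unheated, gave no call. In vehicle hindgut against vehicle foregut limma called 0 members (0 at an unadjusted p under 0.05; 2.38% of all features were higher and 5.08% lower, or 887 and 1001 features with median-of-ratios scaling), with a median of 0.06. In unheated hindgut against unheated foregut it called 0 as well (0 at an unadjusted p under 0.05; 0.662% of all features were higher and 0.724% lower), with a median of −0.09.

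Dorsal tissue had higher levels of ribosomal protein messages than the vehicle explants. Against vehicle foregut 101 of 106 members were called higher and 0 lower (10.9% of all features were higher and 21.4% lower; with median-of-ratios scaling 4189 features were higher and 3985 lower), with a median log2 difference of 0.81, against −0.23 for all features. All 60 large subunit genes and 40 of 42 small subunit genes were called. Without the 3 low rows the counts were 98 of 103 members, 58 of 58 large subunit genes and 39 of 41 small subunit genes. rpl39.L had 860.1, 777.0 and 899.6 TPM in dorsal tissue, against 392.8, 308.8 and 344.5 TPM in vehicle foregut (log2 difference 1.28, SE 0.14, limma adjusted p = 8.08e-08). rpl29.L had 1555, 1281 and 1579 TPM in dorsal tissue, against 684.4, 594.0 and 601.0 TPM in vehicle foregut (log2 difference 1.23, limma adjusted p = 1.11e-07). rpl19.L had 1396, 1063 and 1338 TPM in dorsal tissue, against 600.4, 531.7 and 605.3 TPM in vehicle foregut (log2 difference 1.12, limma adjusted p = 2.6e-07). Every dorsal library was above every vehicle library for these genes, as for 102 members in all (14% of all features). Without the 3 low rows this held for 99 of 103. rps13.L, rpl17.S and rpl6.L followed, with log2 differences of 1.02, 0.95 and 0.88. The 5 genes that did not pass were rps29.S, rpl3l.L, rps21.L, rps19bp1.L and rpl22l1.L.

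Against vehicle hindgut 99 members were called higher and 0 lower (15.6% of all features were higher and 18.1% lower), or 96 of 103 without the 3 low rows, with a median of 0.73. rpl39.L differed by 1.21 (limma adjusted p = 1.59e-07), with 369.2, 375.5 and 347.9 TPM in vehicle hindgut. These comparisons share the dorsal libraries and run across experiments, so that tissue, treatment with solvent and any difference in handling cannot be told apart. Of the 145 biogenesis genes, 43 were higher and 6 lower in dorsal tissue than in vehicle foregut, with a median of 0.18. That count was 28 without vehicle foregut replicate 2, vehicle foregut replicate 3 or dorsal replicate 3.

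The unheated explants of the heat experiment were also higher than the vehicle explants. These comparisons run across experiments as well, so that treatment with solvent, possible carriage of the transgene and any difference in handling cannot be told apart. In unheated foregut 88 of 106 members were called higher than in vehicle foregut and 0 lower (4.42% of all features were higher and 18.2% lower; with median-of-ratios scaling 2535 features were higher and 2310 lower), with a median of 0.66. In unheated hindgut 65 were called higher than in vehicle hindgut and 1 lower (3.56% of all features were higher and 14.2% lower; with median-of-ratios scaling 2151 features were higher and 2133 lower), with a median of 0.53. rpl39.L had 762.2 and 642.8 TPM in unheated foregut, against 392.8, 308.8 and 344.5 TPM in vehicle foregut, and the groups did not overlap. The 1 member that was lower was rpl22l1.L, with 71.3 and 66.3 TPM in unheated hindgut, against 101.2, 127.2 and 134.2 TPM in vehicle hindgut (log2 difference −0.79, SE 0.19, limma adjusted p = 0.00495). Without the 3 low rows the counts of higher members were 85 of 103 in the foregut and 64 of 103 in the hindgut. The foregut count was 47 without unheated foregut replicate 1. The hindgut count was 12 without the library headed 12, 40 without vehicle hindgut replicate 3 and 0 when the 2 groups were fitted alone.

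Set beside the unheated explants, again across experiments, dorsal tissue differed in few genes. Against unheated foregut 6 members were called higher and 0 lower (15.1% of all features were higher and 10.3% lower), and against unheated hindgut 13 were called higher and 0 lower (19.9% of all features were higher and 9.74% lower). With the replicate block the counts were 13 against unheated foregut and 21 against unheated hindgut. The count of 6 was 1 without dorsal replicate 3, 2 without dorsal replicate 1 or unheated foregut replicate 2, 3 without unheated foregut replicate 1 and 10 without dorsal replicate 2, and the count of 13 was 2 without the library headed 23 and 8 without dorsal replicate 1. The medians were 0.14 and 0.23, and with median-of-ratios scaling −0.02 and −0.05, with 0 members called in both and, of all features, 3581 higher and 3787 lower against unheated foregut and 3960 higher and 4115 lower against unheated hindgut. The 6 genes were rpl3.S, rpl38.L, rpl29.L, rpl6.S, rps3.L and rpl35a.S, and the first had a log2 difference of 0.64 (SE 0.17, limma adjusted p = 0.00697). The ratio of the summed levels was 1.10 for dorsal tissue against unheated foregut, and 1.74 for dorsal tissue against vehicle foregut.

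rpl22l1.L, a paralog of rpl22 that binds RNA and in the mouse and zebrafish acts in splicing and blood development, followed the other members in some comparisons and not in others. Its highest group mean was 140.0 TPM in BIO foregut and its lowest 27.5 TPM in hindgut endoderm, a 5.09-fold range. It had 114.6, 146.5 and 159.0 TPM in BIO foregut, against 107.2, 100.7 and 119.0 TPM in vehicle foregut, where the ranges overlapped (log2 difference 0.35, limma adjusted p = 0.284). In dorsal tissue it had 98.9, 91.0 and 109.1 TPM, within or below the range of vehicle foregut, while nearly all other members were higher there (log2 difference −0.13, limma adjusted p = 0.618). In the heat experiment it had 68.3 and 68.9 TPM in heated foregut, against 78.6 and 72.8 TPM in unheated foregut, and 73.8 and 46.4 TPM in heated hindgut, against 71.3 and 66.3 TPM in unheated hindgut. Over the 37 libraries its correlation with the sum of the other members was −0.03, and taken as deviations from the group means it was 0.62. In the hindgut endoderm comparisons described above its differences had the same sign as those of most members.

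That correlation was high for the other genes. Its median over the 106 members was 0.95 and it was above 0.5 for 102, while rpl3l.L had −0.46, rpl3.S 0.22 and rps19bp1.L 0.42. Taken as deviations from the group means the median was 0.88. The libraries share a fixed total of TPM and the same groups, so these values are descriptions and carry no test. rps19bp1.L, which encodes a binding partner of rps19, averaged 131.6 TPM.

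A few rows were at or near 0. rpl3l.L, a muscle form of rpl3 in mammals, had a mean of 0.19 TPM and was above 0 in 13 of the 18 inhibitor libraries, with at most 1.44 TPM. Another 3 rows without a chromosome letter, rps24.1 (mean 2.60 TPM), rpl37a.1 (3.00 TPM) and rpl37 (3.51 TPM), had the reverse pattern. rps24.1 was listed at 0 in 16 of the 18 inhibitor libraries and was above 0 in 7 of 8 heat libraries and in 3 of 3 dorsal libraries, with up to 18.8 TPM. rpl37a.1 and rpl37 were listed at 0 in all 18 inhibitor libraries and were above 0 in 5 and 7 of the 8 heat libraries, with up to 25.2 and 29.6 TPM. These 3 rows entered through the groups in which they are high, and the counts between experiments are given above with and without them.

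The L and S copies of a family often stood at unequal levels. Of 46 pairs, 24 had the higher mean in the L copy and 22 in the S copy. The same copy was the higher one in all 37 libraries for 28 pairs, 15 with L and 13 with S higher. The copies differed by more than 2-fold on average in 18 pairs and by more than 4-fold in 7. The L copy led most in rps29 (mean log2 ratio of L to S 3.28), rpl36a (2.73), rpl3 (2.54) and rpl29 (2.45). The S copy led most in rps21 (−2.08), rpl14 (−2.03), rpl39 (−1.66) and rpl15 (−1.64). Copies of a pair are close in sequence and the counting could split their reads, so each copy's level is uncertain. Across the 37 libraries the levels of the copies of a pair varied together, with a median correlation of 0.94 (range 0.54 to 0.98). The median correlation of a member with the sum of the other members was 0.95, so a value this high was not particular to copies of a pair.

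**Figure D5:**
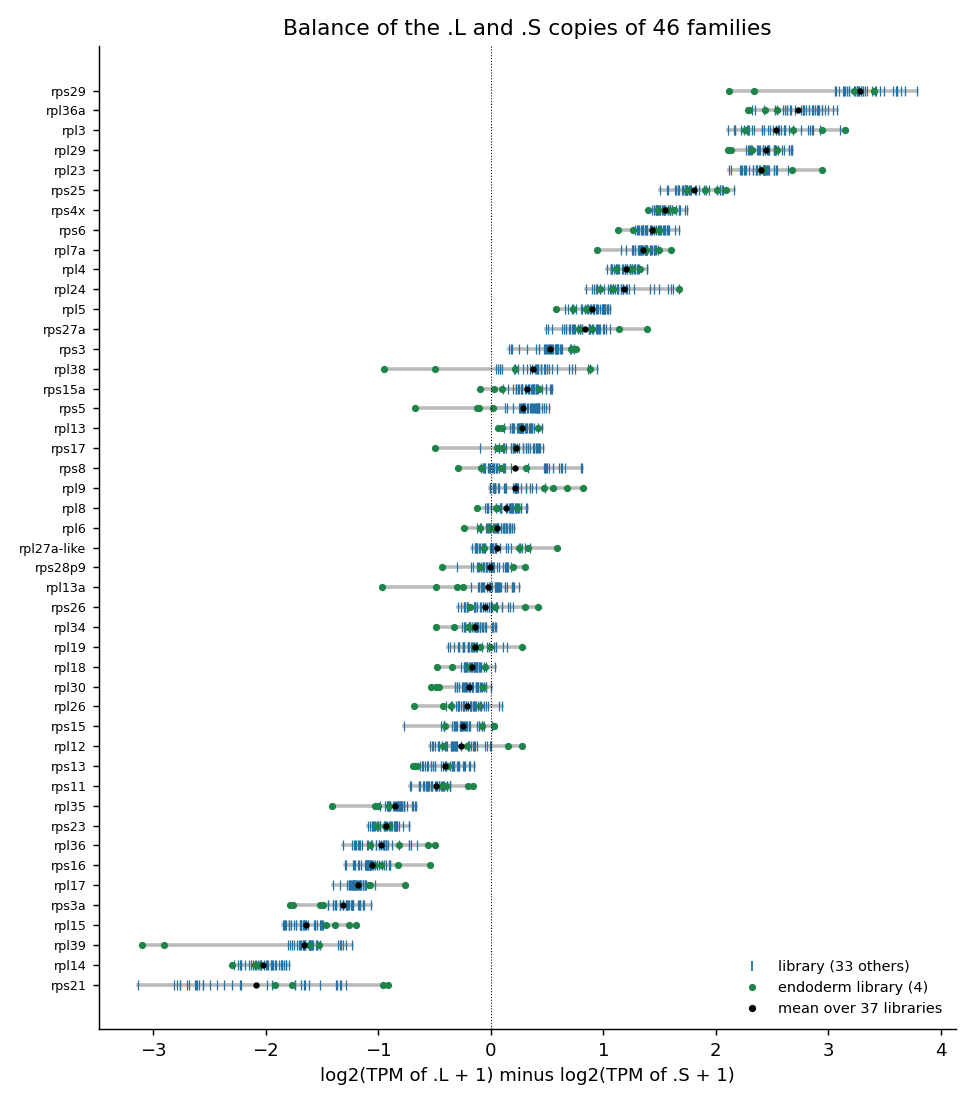
Log2 of the L copy's TPM minus log2 of the S copy's for 46 families (1 row each), with ticks for 33 libraries, green dots for the 4 endoderm libraries and a black dot for the mean of all 37. Means run from 3.28 for rps29 to −2.08 for rps21, and rps27a stays above 0 in all libraries.

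A ratio of copies within a library does not depend on that library's scaling. In limma's F-test over the 15 groups it differed for 23 of 46 pairs, where 69.1% of 7104 pairs of all genes did. The smallest p-values were those of rps27a (range of group means 0.69 on the log2 scale, limma adjusted p = 4.43e-06), rpl36a (0.66), rpl9 (0.67), rpl15 (0.45), rpl13a (0.83) and rpl27a-like (0.57). Blocking on the replicate number gave 36 of 46, for which the share of all pairs is not given here. Tested within experiments, fewer pairs passed. In limma's F-test 0 of 46 pairs differed within the inhibitor experiment (2 at an unadjusted p under 0.05; 23.1% of all pairs) and 0 within the heat experiment (0 at an unadjusted p under 0.05; 0% of all pairs). Within the germ layers 2 differed, rps27a (limma adjusted p = 0.0386) and rps3a (limma adjusted p = 0.0448), where 20% of all pairs did. rps27a encodes a fusion of ubiquitin with a small subunit protein. rps27a.L had 1483 and 1877 TPM in hindgut endoderm and rps27a.S 564.5 and 850.2 TPM, a group mean log2 ratio of 1.27, against 0.57 to 0.98 in the other 14 groups. rps3a had a log2 ratio of −1.77 in hindgut endoderm.

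The level of rps21.L moved with the replicate number. In each of the 6 inhibitor groups rps21.L was highest in the library numbered 1, at 237.2 to 448.8 TPM, against 110.9 to 199.3 TPM in the libraries numbered 2 and 3. The log2 ratio of rps21.L to rps21.S was −1.74 to −1.29 in the libraries numbered 1, against −2.82 to −2.43 in the others, so the ranges did not touch. Of the 46 pairs, the ratio was highest in the library numbered 1 in all 6 groups for 7 and lowest there in all 6 groups for 5. Pairs of other genes were not counted in this way, so the pattern may not be particular to ribosomal protein genes. Without the 6 libraries numbered 1, the count of members higher in BIO foregut was 3 in place of 17.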

How the data were processed

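Levels were taken as TPM from a table that the authors deposited for 37 libraries. Per the submitters' processing notes the reads passed through FastQC, Trimmomatic and RSEM. Versions, annotation and genome build are not given in the sources used here. The library kit is TruSeq Stranded mRNA, per the labels' protocols. By their names, 33 of 37 columns belong to 1 sample each, and 4, of the hindgut heat groups, to a group only.

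Of 40271 features in the table, 28863 (71.7%) had at least 1 TPM in at least 2 libraries and were tested on log2(TPM + 1) with limma 3.58.1 (R 4.3.3), with a trend in the variance. The 15 groups shared 1 estimate of the spread (22 residual degrees of freedom), and p-values were adjusted over all features by Benjamini-Hochberg at 0.05. The words rose, fell and called refer to this threshold. Sums, ratios and correlations were computed with Python 3.11.15 and pandas 2.3.3 and carry no test. With TPM alone the depth is unknown, so no counting interval or floor is given. The fits were tried on simulated data with independent noise of equal spread in every group and no pairing. Of 89 features given a log2 difference of 1 in BIO foregut, 53 were found, with 11 false calls in 26205 features. In hindgut mesoderm 31 of 99 were found, with 6 false calls in 26241 features. Differences below 1 were not simulated. Alternatives were other pseudocounts, filters and scalings, homeologs summed, a fit on the compared groups only, the replicate block and each library left out.

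The members and the gene lists were chosen with earlier results of these data known. Genes named in the comparisons were mostly drawn from the 6 called members with the smallest p in each direction and their other copy. The members with the 6 highest and lowest means and up to 3 called genes of other lists were named too. Not every comparison names all of these. Some counts of 13 or fewer were also named in full. Same-numbered libraries deviated together. The correlation of deviations from the group means was 0.253 to 0.557 over 45 pairs in the inhibitor experiment. It was 0.101 to 0.335 over 12 pairs in the germ layers and 0.502 over 2 pairs in the heated and unheated foregut. With 2 libraries a group the deviations mirror each other, so these 2 foregut pairs hold a single value. For the same reason each germ layer value is held by 2 of the 12 pairs. The replicate block takes the numbers to pair the samples. All counts and p-values come from the fit without this block, except where the block is named.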

Additional observations from a re-analysis of the deposited data

Results flagged for a closer look

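The difference between mesoderm and endoderm was itself different between hindgut and foregut. This was tested with the interaction term, and 73 of 106 ribosomal protein genes passed, where 8.32% of all features did. The 6 with the smallest p were rpl3.L, with an interaction of 1.27 on the log2 scale, rpl4.L with 1.04, rpl10a.S with 1.45, rpl7l1.L with 0.86, rpl12.S with 1.29 and rpl13a.L with 1.11. Each value is the mesoderm minus endoderm difference in hindgut minus that in foregut. The count rests on 2 libraries a group and was 36 without foregut endoderm replicate 1 and 30 without hindgut endoderm replicate 1. It was lower still with median-of-ratios scaling and with the compared groups fitted alone, as given above. The cause was not tested.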

How the results depend on the processing

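The named results checked here were 37, each a gene in 1 comparison. They cover BIO foregut, the layers of both regions, the endoderm of the regions and dorsal tissue against vehicle explants. Comparisons with unheated explants are not among them. None of these results changed direction under the alternatives. Of 523 alternative values, 453 kept their side of the threshold and 70 kept their direction but missed it. Of 635 alternative counts, 574 stayed within 1.5 times the count given in the report. Of 254 alternative medians of the members in 18 comparisons, 13 had the other sign, in 8 comparisons. Among them are dorsal tissue against unheated foregut (−0.02, where it was 0.14) and unheated hindgut (−0.05, where it was 0.23) and hindgut against foregut mesoderm (−0.14, where it was 0.02), all with median-of-ratios scaling. The others were in comparisons whose median lay within 0.1 of 0. The causes of the changes below were not tested unless stated.

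Median-of-ratios scaling moved the median of all features by over 0.1 on the log2 scale in some comparisons, for instance to 0.00 in unheated against vehicle foregut, where it was −0.28. It called 1 member higher in BIO foregut, 22 in hindgut mesoderm against hindgut endoderm and 23 in the layer interaction, and 0 members lower in unheated against vehicle hindgut. The count in BIO foregut was below the share of all features with this scaling, and that in hindgut mesoderm was close to it. For the layer interaction this share is not given here. Summing homeologs leaves fewer rows, with 59 families of members. It called 35 families higher in hindgut mesoderm against endoderm and 56 lower in hindgut against foregut endoderm. In dorsal tissue it called 56 and 57 higher against vehicle foregut and hindgut. In unheated explants it called 51 and 35 higher against vehicle foregut and hindgut. It called 46 in the layer interaction and 58 across the 15 groups. The share of all features called in that fit is not given here, so these counts are not set against it. Fits on only the compared groups have fewer samples to estimate the spread. They also use the spread of those groups in place of the one shared by the 15 groups. They called 1 member higher in BIO foregut, 0 higher and 0 lower in foregut mesoderm against endoderm, 7 higher in hindgut mesoderm against endoderm, 0 lower in hindgut against foregut endoderm, 1 lower in dorsal tissue against vehicle foregut, 36 higher in unheated against vehicle foregut, 0 higher and 0 lower in unheated against vehicle hindgut and 0 in the layer interaction. The call of rps24.1 as higher in foregut mesoderm was lost, leaving 0, with a pseudocount of 5 and with no filter on low values, and 1 member was lower in unheated against vehicle foregut with a filter at 5 TPM.

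The replicate block raised the count in BIO foregut to 40, gave 1 member lower in dorsal tissue against vehicle foregut (rpl3l.L) and 1 lower in unheated against vehicle foregut, called 36 pairs in the test of the L to S ratio, and called 13 and 21 members higher in dorsal tissue against unheated foregut and hindgut. It moved no other count of the members by more than 1.5 times. The shares of all features and pairs called with the block are not given here, so these counts are not set against them.

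With each library left out in turn, the counts ran from 0 to 21 higher in BIO foregut, 47 to 87 higher in unheated against vehicle foregut, 12 to 60 higher and 0 to 1 lower in unheated against vehicle hindgut, 1 to 66 lower and 0 to 0 higher in foregut mesoderm against endoderm, 34 to 68 higher and 0 to 1 lower in hindgut mesoderm against endoderm, and 30 to 97 in the layer interaction. The call of 1 lower member in hindgut mesoderm arose without hindgut endoderm replicate 1.

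Chosen after seeing the data were the counts without the 3 low rows, the levels without foregut endoderm replicate 1 and the following. Leaving out the 6 libraries numbered 1 gave 3 members higher in BIO foregut, unheated explants in place of vehicle explants gave 6 and 13 members higher in dorsal tissue against foregut and hindgut, and F-tests within experiments called 0 members in the heat and 14 in the germ layer experiment, and 0, 0 and 2 pairs in the inhibitor, heat and germ layer experiments. Depth is unknown and only 2 or 3 libraries a group limit the precision.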
